A study of Homo sapiens with 18 samples.

Results

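The 10 genes described here code for lipoprotein assembly, for apolipoproteins encoded outside the chromosome cluster of APOA4, and for remodelling enzymes of lipoproteins: APOB, MTTP, APOE, APOC1, APOA2, APOH, APOM, PLTP, LCAT and LIPC. They were taken by symbol from the 61806 genes of the count table, and all 10 were among the 19743 genes that passed the filter on low counts. The cells were HepG2, a human hepatoma line with the unedited genotype, and APOA4-KO, a HepG2 line in which APOA4, the gene of a lipid-binding plasma apolipoprotein, was edited with CRISPR-Cas9 and which was grown from a single colony. Poly(A) RNA of each line was sequenced at 0 h, before any hypoxia, and then following hypoxia (1% oxygen) for 24 h or 48 h, in 6 groups of 3 libraries, 18 in all. Only the 0 h cells were outside hypoxia, so hypoxia and time cannot be told apart, and the effect of the edit cannot be told apart from any other way in which the clone departs from its parent.

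Hepatocytes build very-low-density lipoproteins around APOB, onto which the microsomal triglyceride transfer protein, whose large subunit is the product of MTTP, loads lipid in the endoplasmic reticulum. Smaller apolipoproteins such as APOE, APOC1, APOA2 and APOM sit on the surface of these particles or of high-density lipoproteins (HDL), and PLTP, LCAT and LIPC then move or modify the lipids of particles in the plasma. HepG2 cells are known to secrete APOB particles, so the line is a common model of this pathway.

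Sequence upstream of a start site is shown for 3 members, chosen because MTTP differed between the lines at every time and APOH was higher in one line at 0 h and in the other at 24 h, and APOA2 was higher in APOA4-KO at 0 h and 48 h. The sequences are from the RefSeq promoter table (GRCh38.p14), which matched 8 of the 10 genes, and are printed 5′ to 3′ up to the first base of any annotated exon. Capitals mark 2 of the letter strings searched on both strands, GTTAAT (a part of the site of HNF1, a liver transcription factor) and TATAAA (the TATA box). The RefSeq starts of MTTP and APOH lie inside the longer spans that GENCODE gives these genes. APOB and LCAT were not matched.
MTTP, chr4:99574574-99574706 (+): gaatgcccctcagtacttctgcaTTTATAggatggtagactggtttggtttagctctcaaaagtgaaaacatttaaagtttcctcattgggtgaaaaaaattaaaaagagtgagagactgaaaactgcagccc
APOH, chr17:66229423-66229665 (-): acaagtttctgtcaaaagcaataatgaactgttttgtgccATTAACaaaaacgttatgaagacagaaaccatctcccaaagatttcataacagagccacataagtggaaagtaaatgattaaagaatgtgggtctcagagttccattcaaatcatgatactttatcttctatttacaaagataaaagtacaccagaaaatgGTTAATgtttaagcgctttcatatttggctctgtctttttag
APOA2, chr1:161223632-161223878 (-): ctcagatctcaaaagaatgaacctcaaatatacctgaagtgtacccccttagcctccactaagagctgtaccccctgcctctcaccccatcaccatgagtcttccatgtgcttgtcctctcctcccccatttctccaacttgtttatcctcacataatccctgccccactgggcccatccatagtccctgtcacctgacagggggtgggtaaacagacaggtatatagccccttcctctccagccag

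The APOH window held GTTAAT at 49 bases before the start and, on the other strand, at 210 bases, and 6.23% of the 35116 promoters of the table held these letters in their 250 bases. The TATAAA of MTTP lay on the other strand at 227 bases before the start, and 10.7% of promoters held it. Another MTTP window of the promoter table, chr4:99563880-99564129, is not printed and held none of the strings searched. None of the strings searched was in the APOA2 window: these were also CAAAGTCCA and CAAAGGTCA, forms of a site of the nuclear receptor HNF4 (0.325% and 0.339% of promoters), and ACGTG, the core of the hypoxia response element (18.5% of promoters). Matches of this kind are a description of the letters only.

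The deposited totals lay between 76481820 and 91604947 counts per library, with a median of 81836972. All 7 hepatocyte markers were detected in every library. CPM of the cell type markers are counts per library total without TMM factors, and CPM of the other genes were corrected with TMM factors. ALB was at 14115 to 19967 CPM, SERPINA1 at 13068 to 17447.5, TF at 7835 to 14896 and HNF4A at 272 to 388. The others ranged more widely between libraries, AFP at 130 to 1566 CPM, FGB at 102 to 867 and TTR at 42.3 to 175. The summed macrophage markers were mostly LYZ (1057 to 2572 CPM), with CD68 at 28.5 to 67.9 CPM and CD14 at 3.79 to 8.83, and PTPRC, ITGAM, CSF1R and TYROBP reached at most 7.85, 1.23, 0.424 and 0.693 CPM. Of the stellate cell or fibroblast markers, ACTA2 was at 60.0 to 135 CPM and PDGFRB at 27.1 to 50.1, and COL1A1, COL1A2, COL3A1 and DCN reached at most 5.46 CPM. Of the endothelial markers, PECAM1, CDH5, VWF and KDR reached at most 8.45 CPM. The labels name no cells other than these cultured lines, and whether other cells were present was not tested. The share of counts from the mitochondrial genome was 6.5% to 8.96% in HepG2, 9.01% to 9.31% in APOA4-KO at 0 h and 5.17% to 5.42% in APOA4-KO at 24 h and 48 h. In bulk samples of this kind, fewer cells of a type and less RNA per cell cannot be told apart. The labels do not say that the 3 libraries of a group came from separate cultures, so the p-values measure only the spread between these libraries, which may be technical.

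The edited gene itself was still transcribed in APOA4-KO. APOA4 stood at 8.95, 9.67 and 8.46 CPM in HepG2 and at 8.35, 7.80 and 6.99 CPM in APOA4-KO at 0 h, a log2 fold change of -0.23 (SE 0.081, edgeR quasi-likelihood test, adjusted p = 0.0404). At 24 h it was at 19.8, 19.8 and 21.0 CPM in HepG2 and at 8.25, 7.51 and 8.04 CPM in APOA4-KO (log2 fold change -1.35, SE 0.081), and at 48 h the difference was -1.29 (SE 0.081). These are RNA levels, from which the protein cannot be read.

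Per length of transcript, as the authors' FPKM, the secreted apolipoproteins stood far above the lipid transfer protein and the enzymes. In HepG2 at 0 h the mean FPKM was 1684 for APOH, 1164 for APOE, 909 for APOA2, 561 for APOB, 114 for APOC1, 82.9 for APOM, 24.5 for PLTP, 10.2 for LIPC, 7.26 for MTTP and 3.26 for LCAT. APOH was first in all 6 groups. APOB moved up the order: in APOA4-KO at 24 h it was second of the 10 at a mean of 1267 FPKM, and 25th of all genes in the 3 libraries, against 49th to 56th in the 12 libraries of HepG2 and of APOA4-KO at 0 h. The 10 genes together took 1.46% ± 0.0163 (SD, n = 3), 1.44% ± 0.0166 and 1.53% ± 0.0311 of the counts of HepG2 at 0, 24 and 48 h, and 1.64% ± 0.0339, 2.45% ± 0.0270 and 1.75% ± 0.0425 of those of APOA4-KO. In APOA4-KO, APOB alone took 0.962% at 0 h and 1.92% at 24 h. Of the other members, only MTTP took a larger share at 24 h (0.0121%) than at 0 h (0.00727%) in that line.

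**Figure D1:**
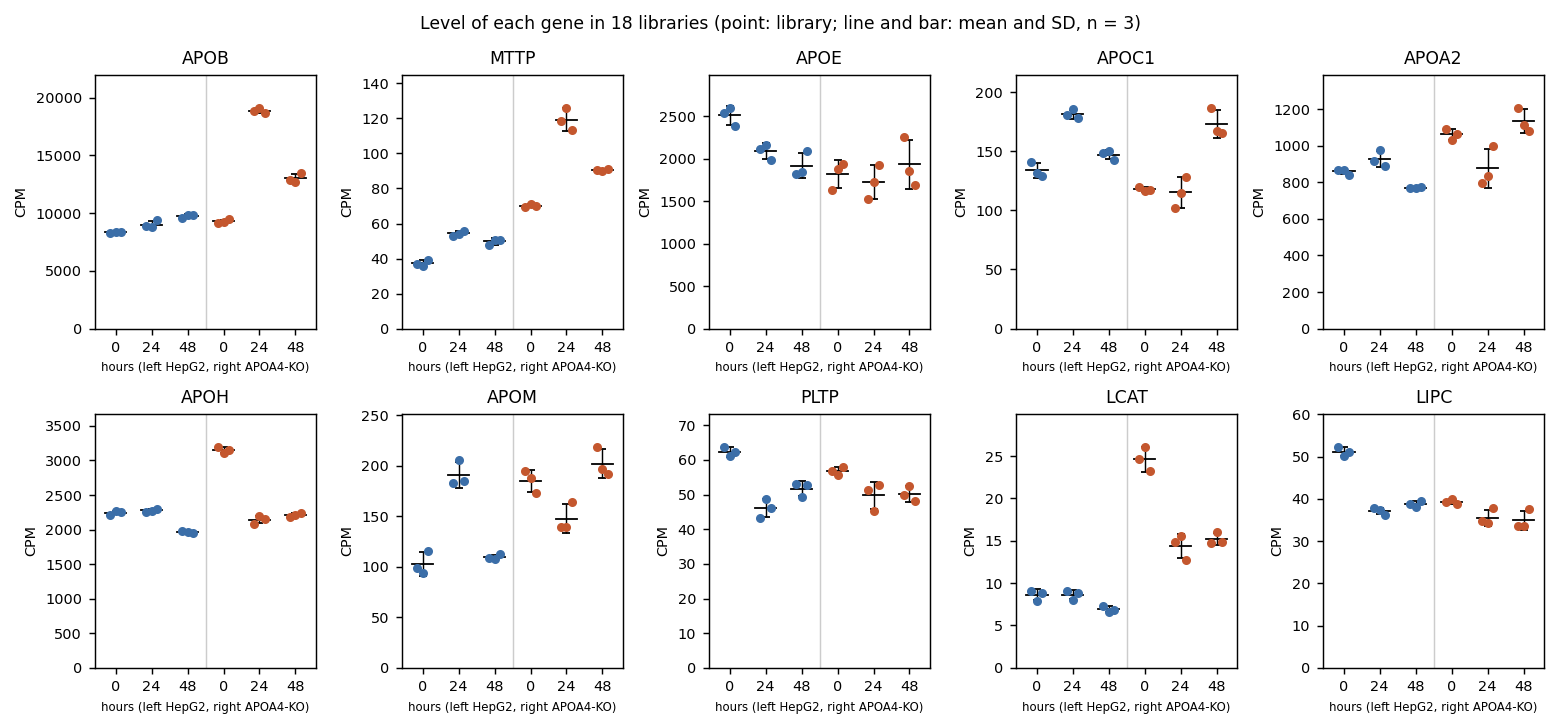
Level of each of the 10 genes in CPM scaled with TMM (vertical axis, starting at 0) in the 18 libraries, by hours of hypoxia, with HepG2 in blue on the left and APOA4-KO in orange on the right of each panel; lines and bars are the mean and SD of 3 libraries. APOB and MTTP are highest in APOA4-KO at 24 h, at a mean of 18870 and 119 CPM, and LCAT is highest in APOA4-KO at 0 h, at a mean of 24.6 CPM.

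The first question of the design is how the 2 lines differ at each time. Higher APOB, MTTP and LCAT in APOA4-KO was found at all 3 times. APOM, APOA2 and APOH were higher at 0 h and 48 h but not at 24 h, APOH by only 0.17 on the log2 scale at 48 h. At 0 h, 9 of the 10 genes passed the test (edgeR quasi-likelihood, Benjamini-Hochberg adjusted p under 0.05), 6 higher and 3 lower in APOA4-KO, where 30.5% of all tested genes passed (12.9% higher, 17.6% lower). At 24 h, 7 passed, 3 higher and 4 lower, beside 48.1% of all genes (23.6% higher, 24.6% lower), and at 48 h 8 passed, 7 higher and 1 lower, beside 50.8% (23.5% higher, 27.3% lower). The balance at 24 h depended on the scaling: 4 were higher and 2 lower with scaling by library size alone, 6 and 1 with a trend on transcript length removed, and 5 and 3 with a trend on GC content removed. At 48 h it was 5 and 2 with library size alone. A change of at least 2-fold as well was reached by LCAT at 0 h (4.31% of all genes), by APOB and MTTP at 24 h (7.77%) and by LCAT at 48 h (13.6%). The median absolute log2 fold change of the 10 genes was 0.42, 0.33 and 0.33 at the 3 times, beside 0.26, 0.46 and 0.51 over all tested genes.

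**Figure D2:**
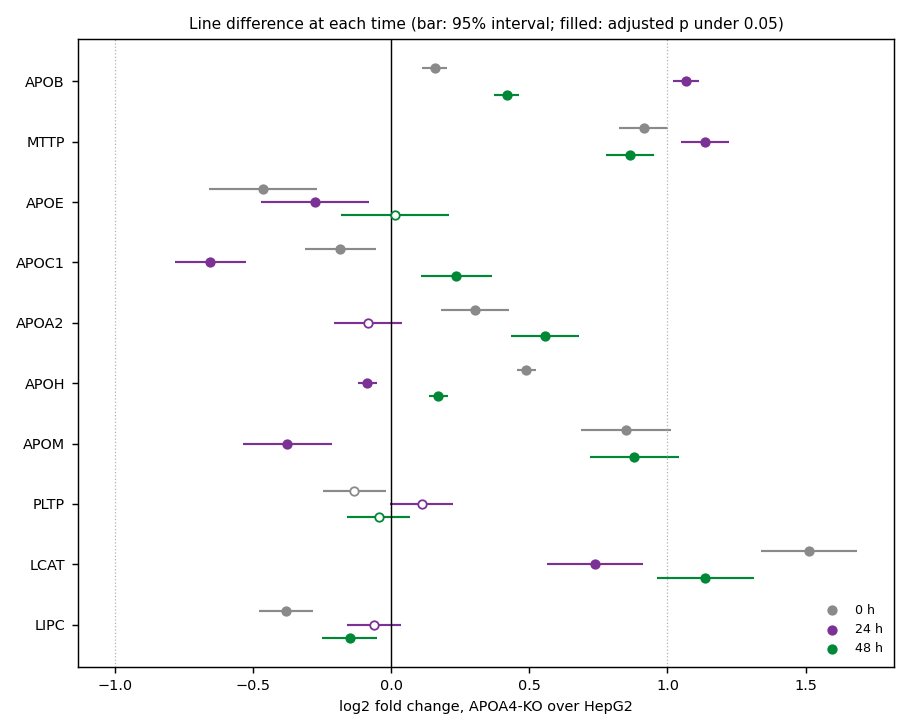
Log2 fold change of APOA4-KO over HepG2 (horizontal axis) for each gene at 0 h (grey), 24 h (purple) and 48 h (green), with 95% intervals; filled points passed at an adjusted p under 0.05 and dotted lines mark 2-fold. MTTP, LCAT and APOB lie right of 0 at all 3 times, and APOM lies right of 0 at 0 h and 48 h and left of it, at -0.38, at 24 h.

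APOB (chr2:21001429-21044073, minus strand, GENCODE v29 on GRCh38), the structural protein of very-low-density lipoproteins, had 8252, 8381 and 8344 CPM in HepG2 at 0 h and 9174, 9223 and 9452 CPM in APOA4-KO. At 24 h the values were 8905, 8768 and 9363 CPM in HepG2 and 18814, 19134 and 18663 CPM in APOA4-KO. At 48 h they were 9576, 9824 and 9842 CPM in HepG2 and 12880, 12712 and 13482 CPM in APOA4-KO. The libraries of the lines did not overlap at any time, and those of APOA4-KO at 24 h stood apart from all others. The fold of APOA4-KO over HepG2 was 1.12 at 0 h (log2 0.16, SE 0.022, adjusted p = 1.68e-05 by edgeR), 2.09 at 24 h (log2 1.07, SE 0.022, adjusted p = 2.91e-17) and 1.34 at 48 h (log2 0.42, SE 0.022, adjusted p = 7.21e-12). In the order of the 6 group means, APOA4-KO at 0 h and HepG2 at 24 h were the only neighbours that were not told apart (adjusted p = 0.164 by edgeR).

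At 24 h, transcript length and GC content moved with the line difference across all genes, and APOB has the longest transcript of the 10 (15148 bases as the FPKM table implies). Among the 12712 genes that averaged 100 counts or more and had both properties known, Spearman's rho of the log2 fold change at 24 h was 0.32 with length and -0.55 with GC content, given as a description over genes of the same libraries. The median log2 fold change was 0.27 in the 3314 genes of 8000 bases and more, beside -0.32 in the 339 genes under 1000 bases, and 93.6% of these long genes lay below APOB. At 0 h and 48 h rho was 0.17 and 0.19 with length and -0.33 and -0.11 with GC content. APOB then lay within the quartiles of these long genes (-0.13 to 0.21 and -0.24 to 0.49), with 69.1% and 70.9% of them below it. With the trend on length removed from each library, APOB was at a log2 fold change of 0.75 at 24 h (1.69-fold), and with the trend on GC content removed at 0.83 (1.78-fold), so that it passed the test but not the 2-fold limit. Both fits were added after the data had been seen, and the part of library composition in the result was not tested.

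MTTP (chr4:99563761-99623999, plus strand), the lipid-loading subunit, was measured at 37.0, 35.7 and 39.0 CPM in HepG2 and 69.3, 71.3 and 69.9 CPM in APOA4-KO at 0 h. It reached 53.1, 54.1 and 55.7 CPM in HepG2 and 119, 126 and 113 CPM in APOA4-KO at 24 h. At 48 h it was 47.7, 50.7 and 50.8 CPM in HepG2 and 90.8, 90.0 and 90.9 CPM in APOA4-KO. Every APOA4-KO library, whatever its time, was above every HepG2 library. The fold between the lines was 1.88 at 0 h (log2 0.91, SE 0.042, adjusted p = 5.96e-12 by edgeR), 2.20 at 24 h (log2 1.14, SE 0.042, adjusted p = 7.74e-14) and 1.82 at 48 h (log2 0.86, SE 0.042, adjusted p = 2.10e-12). All 5 pairs of neighbours in the order of the group means passed the test. MTTP was at 0.86, 0.85 and 0.85 at the 3 times with the trend on GC content removed, which is under 2-fold at 24 h, and at 0.96, 1.16 and 0.94 with that on length removed.

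Of the surface apolipoproteins, APOE (chr19:44905754-44909393, plus strand), a ligand of lipoprotein receptors, varied most between libraries of a group, with a coefficient of variation of up to 15.0%. It was at 2540, 2601 and 2391 CPM in HepG2 and 1633, 1882 and 1940 CPM in APOA4-KO at 0 h, which did not overlap, a log2 fold change of -0.47 (SE 0.093, adjusted p = 0.000694 by edgeR). At 24 h HepG2 had 2116, 2167 and 1981 CPM and APOA4-KO 1524, 1722 and 1924 CPM (log2 -0.28, adjusted p = 0.0187 by edgeR). This call was lost without HepG2 24 h replicate 1 (-0.27), without HepG2 24 h replicate 2 (-0.25) and without APOA4-KO 24 h replicate 1 (-0.18), and the sign turned, to 0.25, with the trend on GC content removed. It was also lost with library size alone (-0.21), with limma on log2(FPKM + 1) and log2(FPKM + 0.1) (-0.215 in both) and with the trend on length removed (-0.04). APOE has the highest GC content of the 10, at 68.5%. At 48 h the lines overlapped, with 1814, 1847 and 2088 CPM in HepG2 and 2253, 1859 and 1689 CPM in APOA4-KO, and the 95% interval of the log2 fold change ran from -0.18 to 0.21. With the trend on length removed, the 48 h value was 0.23 and passed.

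APOC1 (chr19:44914247-44919349, plus strand), a small apolipoprotein encoded next to APOE, was at 181, 186 and 178 CPM in HepG2 and at 102, 115 and 129 CPM in APOA4-KO at 24 h. The lines were far apart at this time, with a log2 fold change of -0.65 (SE 0.061, adjusted p = 3.33e-08 by edgeR). At 0 h the difference was -0.18 (adjusted p = 0.0282 by edgeR), and that call was lost without HepG2 0 h replicate 1 (-0.14), APOA4-KO 0 h replicate 2 (-0.18) or APOA4-KO 0 h replicate 3 (-0.19). It was also lost with the size factors of DESeq2 (-0.16), with limma on either FPKM scale (-0.16 in both), and with the trend on length (-0.06) or GC content (-0.05) removed. At 48 h the order was the opposite, with 148, 150 and 143 CPM in HepG2 and 187, 168 and 165 CPM in APOA4-KO (log2 0.23, SE 0.061, adjusted p = 0.00319 by edgeR), and the call was lost where the counts were scaled by library size alone (0.086). Of the annotated exon bases of APOC1, 43.2% are shared with AC011481.3, whose mean count was 2.74% of that of APOC1, and its near copy APOC1P1 had 76 to 313 counts in a library, so reads could be split between them.

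APOA2 (chr1:161222292-161223631, minus strand), after APOA1 the main protein of HDL, was at 869, 870 and 843 CPM in HepG2 and 1090, 1030 and 1068 CPM in APOA4-KO at 0 h. At 24 h the lines overlapped, with 919, 975 and 891 CPM against 799, 833 and 998 CPM, where APOA4-KO replicate 3 was the highest library of all 6. At 48 h they stood apart again, at 772, 768 and 774 CPM against 1209, 1113 and 1082 CPM. The log2 fold change was 0.30 at 0 h (SE 0.059, adjusted p = 0.000498 by edgeR), -0.08 at 24 h (95% interval -0.21 to 0.04) and 0.56 at 48 h (SE 0.059, adjusted p = 1.52e-07). Without APOA4-KO 24 h replicate 3 the 24 h value was -0.17 and passed, and with the trend on length removed it was 0.21 and passed with the opposite sign.

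APOM (chr6:31652416-31658210, plus strand), the HDL protein that carries sphingosine 1-phosphate, was the higher in APOA4-KO at 0 h and 48 h and the lower at 24 h. It had 98.5, 93.9 and 116 CPM in HepG2 and 195, 188 and 173 CPM in APOA4-KO at 0 h, a log2 fold change of 0.85 (SE 0.077, adjusted p = 7.90e-08 by edgeR). At 24 h HepG2 was the higher line, with 183, 206 and 184 CPM against 139, 139 and 164 CPM (log2 -0.38, SE 0.077, adjusted p = 0.000392 by edgeR). At 48 h APOA4-KO was higher again, with 219, 196 and 191 CPM against 108 to 112 CPM in the 3 HepG2 libraries (log2 0.88, SE 0.077, adjusted p = 1.18e-08 by edgeR). The lines did not overlap at any time. The 24 h call was lost with the trend on length removed (-0.09) but not with that on GC content removed (-0.32). APOM shares 136 exon bases with BAG6 on the opposite strand, which had 407% of its mean count and log2 fold changes of -0.09, -0.25 and 0.32 at the 3 times.

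APOH (chr17:66212033-66256525, minus strand), a phospholipid-binding plasma glycoprotein, was at 2214, 2265 and 2260 CPM in HepG2 and 3195, 3113 and 3148 CPM in APOA4-KO at 0 h. This was its largest difference between the lines, a fold of 1.40 (log2 0.49, SE 0.016, adjusted p = 6.13e-14 by edgeR). At 24 h HepG2 had 2258, 2269 and 2301 CPM and APOA4-KO 2088, 2189 and 2155 CPM (log2 -0.09, SE 0.016, adjusted p = 0.000171 by edgeR). The 24 h value was -0.02 and did not pass with scaling by library size alone, and it passed at 0.19 with the trend on length removed and at -0.34 with that on GC content removed. At 48 h the libraries did not overlap, at 1974, 1969 and 1945 CPM against 2181, 2210 and 2234 CPM, but the log2 fold change was only 0.17 (SE 0.016, adjusted p = 3.86e-08 by edgeR), and 0.02 and not called with library size alone.

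Of the enzymes and transfer proteins, LCAT (chr16:67939750-67944131, minus strand), which esterifies the cholesterol of HDL, had the largest difference of the 10 between the lines outside hypoxia. Its libraries were at 9.08, 7.89 and 8.89 CPM in HepG2 and at 24.6, 26.1 and 23.2 CPM in APOA4-KO at 0 h. At 24 h they were at 9.01, 8.02 and 8.80 CPM against 14.8, 15.5 and 12.8 CPM, and at 48 h at 7.26, 6.63 and 6.88 CPM against 14.8, 16.1 and 14.9 CPM. Every APOA4-KO library was above every HepG2 library. The fold was 2.85 at 0 h (log2 1.51, SE 0.082, adjusted p = 6.43e-11 by edgeR), 1.67 at 24 h (log2 0.74, SE 0.082, adjusted p = 3.22e-07) and 2.20 at 48 h (log2 1.14, SE 0.083, adjusted p = 8.47e-10). At 24 h the log2 fold change was 1.16 with the trend on GC content removed, and at 48 h it was 0.99 with scaling by library size alone. LCAT is the lowest of the 10 genes, with at least 559 counts in a library. It shares 336 exon bases, 12.8% of its exons, with SLC12A4 on the same strand, which had 1051% of its mean count and log2 fold changes of 0.26, -0.17 and 0.98 at the 3 times, so reads of SLC12A4 could enter its count.

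LIPC (chr15:58410569-58569843, plus strand), hepatic lipase, was at 52.3, 50.2 and 51.0 CPM in HepG2 and at 39.2, 39.9 and 38.7 CPM in APOA4-KO at 0 h. It was thus lower in APOA4-KO by 0.38 on the log2 scale (log2 fold change -0.38, SE 0.047, adjusted p = 3.47e-06 by edgeR). At 24 h the lines overlapped, at 36.3 to 37.8 CPM in HepG2 and 34.2 to 37.8 CPM in APOA4-KO (95% interval of the log2 fold change -0.16 to 0.04). At 48 h the difference was -0.15 (adjusted p = 0.0117 by edgeR) and was not called without APOA4-KO 48 h replicate 1 (-0.12) or replicate 2 (-0.12). It was also not called with the size factors of DESeq2 (-0.10), with only the groups compared in the fit (-0.12), or with the trend on length (-0.07) or GC content (-0.11) removed.

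PLTP (chr20:45898621-45912155, minus strand), which transfers phospholipid between particles, did not pass between the lines at any time, although its libraries did not overlap at 0 h. HepG2 was at 61.0 to 63.8 CPM at 0 h, 43.4 to 48.8 at 24 h and 49.4 to 53.0 at 48 h, and APOA4-KO at 55.7 to 58.0, 45.3 to 52.8 and 48.2 to 52.6 CPM. The 95% intervals of the log2 fold change were -0.25 to -0.02, -0.00 to 0.23 and -0.16 to 0.07. At 24 h the value was 0.11 and passed without HepG2 24 h replicate 2 (0.15) or APOA4-KO 24 h replicate 2 (0.17), and was 0.51 and passed with the trend on GC content removed. With scaling by library size alone it passed at 24 h (0.18) and at 48 h (-0.19), in opposite directions. PLTP shares 200 exon bases with CTSA on the opposite strand, which had 844% of its mean count and log2 fold changes of -0.66, -0.68 and -0.63.

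**Figure D3:**
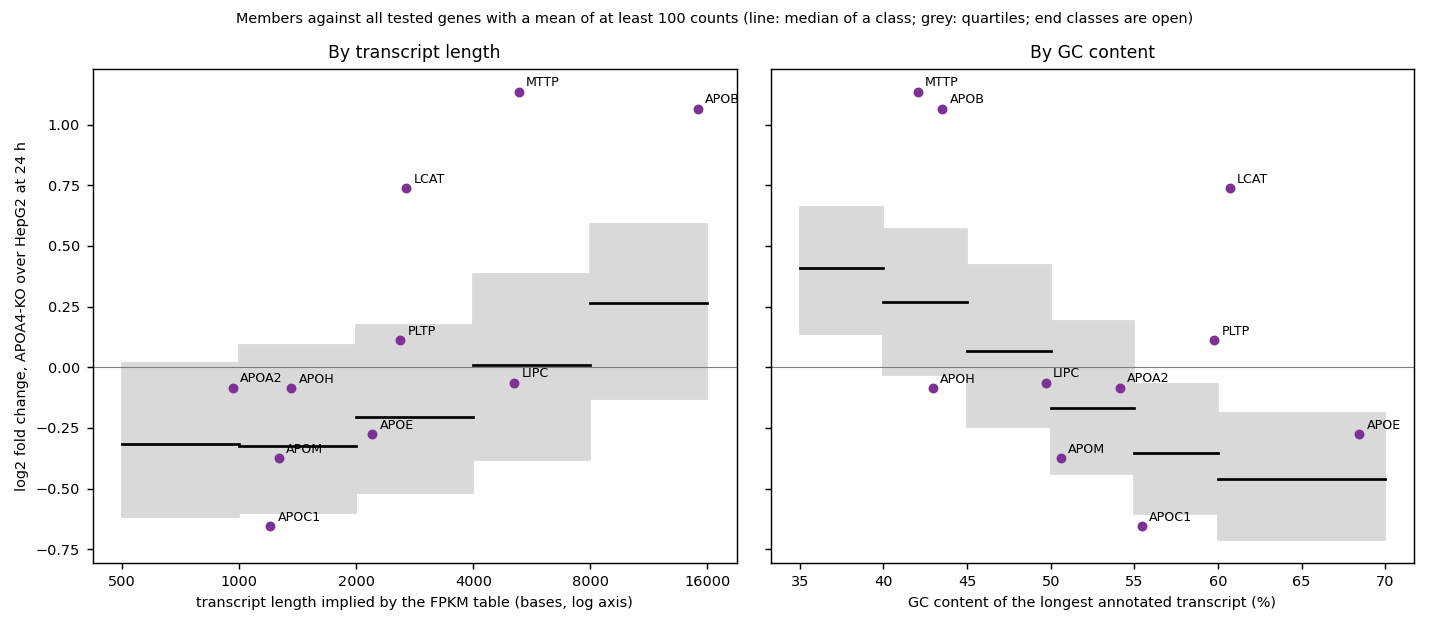
Log2 fold change of APOA4-KO over HepG2 at 24 h (vertical axis) of the 10 genes, as purple points, against the transcript length implied by the FPKM table (left, log axis in bases) and the GC content of the longest annotated transcript (right, percent); black lines and grey areas are the median and quartiles in each class of all tested genes averaging 100 counts or more. APOB, MTTP and LCAT lie above the quartiles of their classes, and APOE, at 68.5% GC, lies above the median of -0.46 of its class although its own value is -0.28.

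The second question is how each gene changed with time in hypoxia within a line. In HepG2, MTTP, APOC1 and APOM rose and LIPC and PLTP fell by 24 h, and MTTP stayed above and LIPC and PLTP below their 0 h levels at 48 h. APOE was also lower at 24 h, but its call was lost in several alternatives given below. Of the 10 genes, 7 passed at 24 h against 0 h, 4 higher and 3 lower, where 29.6% of all tested genes did (11.4% higher, 18.3% lower), but library size alone gave 3 higher and 4 lower, and the split was 6 and 2 with the trend on length or on GC content removed. At 48 h against 0 h 7 passed, 2 higher and 5 lower, beside 27.7% (13.1% and 14.6%), and 3 in each direction with the trend on GC content removed. At 48 h against 24 h 8 passed, 2 higher and 6 lower, beside 30.5% (18.7% and 11.9%), and 3 and 5 with library size alone. None of the 10 reached 2-fold (3.08%, 2.18% and 2.12% of all genes). MTTP rose by 0.54 on the log2 scale at 24 h (SE 0.042, adjusted p = 7.73e-09 by edgeR) and was 0.42 above 0 h at 48 h (SE 0.042, adjusted p = 3.69e-07). APOB was higher by 0.11 at 24 h and 0.23 at 48 h (SE 0.022 each), and the 24 h value was 0.04 and not called with library size alone.

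APOM in HepG2 was high at 24 h only. It rose by 0.90 on the log2 scale from 0 h to 24 h (SE 0.077, adjusted p = 3.47e-08 by edgeR) and fell by 0.80 from 24 h to 48 h (SE 0.077, adjusted p = 1.78e-07), and all 3 libraries of 24 h, at 183 CPM and above, were over all 6 others, at 116 CPM and below. At 48 h it was 0.10 above 0 h (95% interval -0.07 to 0.26), which passed without HepG2 0 h replicate 3 (0.21). APOC1 took the same course, with a log2 change of 0.44 to 24 h (SE 0.061, adjusted p = 1.61e-05 by edgeR) and of -0.30 from 24 h to 48 h (SE 0.061, adjusted p = 0.000772). At 48 h against 0 h APOC1 was at 0.14, which did not pass, but it did without HepG2 0 h replicate 1 (0.20) and with the trend on length (0.15) or GC content (0.26) removed. From 24 h to 48 h, the calls of MTTP (-0.13) and PLTP (0.17) were lost in 5 and 4 of the 6 fits that left out 1 library, at -0.13 to -0.09 and 0.13 to 0.17, MTTP in all but the one without HepG2 24 h replicate 1 and PLTP in all but those without replicate 2 of either time.

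The members that fell in HepG2 did so by less than 2-fold. LIPC changed by -0.46 at 24 h (SE 0.047, adjusted p = 2.94e-07 by edgeR) and -0.40 at 48 h (SE 0.047, adjusted p = 2.31e-06), and PLTP by -0.43 (SE 0.055, adjusted p = 4.50e-06) and -0.27 (SE 0.054, adjusted p = 0.000887). The PLTP call at 48 h was lost with the trend on GC content removed (-0.14, adjusted p = 0.0622 by edgeR). APOE changed by -0.39 at 48 h (SE 0.093, adjusted p = 0.00347 by edgeR), and its 24 h value of -0.27 lost the call in 5 of the 6 fits that left out 1 library (-0.30 to -0.23), all but the one without HepG2 0 h replicate 3. The 24 h call of APOE was also lost with DESeq2 (-0.24), with its size factors in edgeR (-0.23), with no filter on low counts (-0.26) and with the replicate block (-0.27). The same held with the trend on length (-0.17) or GC content (-0.14) removed. LCAT was level at 24 h (log2 -0.00, 95% interval -0.18 to 0.17) and changed by -0.32 at 48 h (SE 0.083, adjusted p = 0.00714), a call lost without HepG2 0 h replicate 1 (-0.25) or HepG2 48 h replicate 2 (-0.27) and with the trend on GC content removed (-0.18). APOH changed by -0.19 and APOA2 by -0.16 at 48 h, of which APOH passed (SE 0.016, adjusted p = 3.56e-08) and APOA2 did not (adjusted p = 0.0527). APOA2 did pass with counts divided by 4 (-0.16), with only the groups compared in the fit (-0.13) and with the trend on length removed (-0.15).

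In APOA4-KO, APOB and MTTP rose while APOH and LCAT fell, at both times. Of the 10 genes, 8 passed at 24 h against 0 h, 2 higher and 6 lower, where 44.4% of all tested genes did (21.5% higher, 22.8% lower). The excess of lower calls was not found with the trend on length removed (3 higher, 2 lower) or with that on GC content removed (5 higher, 4 lower). At 48 h against 0 h 7 passed, 3 higher and 4 lower, beside 49.9% (23.9% and 25.9%), and 6 and 3 with the trend on length removed and 5 and 3 with that on GC content removed. At 48 h against 24 h 6 passed, 4 higher and 2 lower, beside 41.3% (21.9% and 19.4%), and 3 and 4 with library size alone. APOB rose 2.03-fold at 24 h (log2 1.02, SE 0.022, adjusted p = 3.96e-17 by edgeR), the only change of a member past 2-fold in APOA4-KO (5.88% of all genes at 24 h and 12.2% at 48 h against 0 h, and 5.66% from 24 h to 48 h), and was 1.40-fold above 0 h at 48 h (log2 0.49, SE 0.022). With the trend on length removed, its 24 h value was 0.79, and with scaling by library size alone it was 0.99. MTTP rose by 0.77 at 24 h (SE 0.041, adjusted p = 1.71e-11) and was 0.37 above 0 h at 48 h (SE 0.041). Both fell from 24 h to 48 h, by 0.53 for APOB and 0.40 for MTTP on the log2 scale. APOH differed by 0.04 between these times, and lost the call in 4 of the 6 fits that left out 1 library (0.02 to 0.04), all but those without APOA4-KO 24 h replicate 2 or 48 h replicate 1. APOE, at 0.17, passed without APOA4-KO 48 h replicate 3 (0.26).

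LCAT in APOA4-KO fell by 0.78 at 24 h (SE 0.081, adjusted p = 1.47e-07 by edgeR) and by 0.69 at 48 h (SE 0.081, adjusted p = 6.30e-07), and remained above HepG2. APOH fell by 0.56 at 24 h (SE 0.016, adjusted p = 3.21e-15) and 0.51 at 48 h (SE 0.016), which brought it from 3113 to 3195 CPM down to 2088 to 2234 CPM. APOM changed by -0.33 at 24 h (SE 0.076, adjusted p = 0.00145 by edgeR) and APOA2 by -0.28 (SE 0.059, adjusted p = 0.000594), and both calls were lost with the trend on length removed (-0.11 and -0.08). The APOA2 call was also lost with the trend on GC content removed (-0.09). At 48 h neither APOM nor APOA2 passed against 0 h (0.13 and 0.09), although both did with the trend on length removed (0.25 and 0.19). Both also passed with the trend on GC content removed (0.18 and 0.21) and with only the groups compared in the fit (0.16 and 0.13). APOC1 did not pass at 24 h (log2 -0.03, 95% interval -0.16 to 0.10), but passed as higher with the trend on length (0.18) or GC content (0.21) removed, and rose by 0.56 at 48 h (SE 0.061, adjusted p = 3.04e-07). APOE did not pass at either time (-0.08 and 0.09), but at 24 h it was 0.38 and passed with the trend on GC content removed. At 48 h APOE was 0.23 and passed with the trend on length removed.

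PLTP and LIPC changed by under 0.2 on the log2 scale in APOA4-KO. PLTP was at -0.19 at 24 h and -0.18 at 48 h, and LIPC at -0.14 and -0.17, all 4 with adjusted p between 0.00551 and 0.0180 by edgeR. The PLTP calls were lost without APOA4-KO 0 h replicate 3 (-0.15 and -0.14), at 24 h also without APOA4-KO 24 h replicate 2 (-0.13) and at 48 h also without APOA4-KO 48 h replicate 1 (-0.15) or replicate 3 (-0.15). The LIPC call at 24 h was lost in 5 of the 6 fits with 1 library left out (-0.13 to -0.11), all but the one without APOA4-KO 24 h replicate 3, and that at 48 h without APOA4-KO 48 h replicate 1 (-0.12). With the trend on GC content removed, PLTP at 24 h was 0.17 and passed in the opposite direction. At 48 h PLTP was not called with the trend on length (-0.04) or GC content (-0.06) removed, and LIPC was not called with only the groups compared in the fit (-0.14). At 24 h the trend on length removed left PLTP at 0.02 and LIPC at -0.08, neither called.

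The third question is whether the change with time differed between the lines, tested as the change in APOA4-KO minus that in HepG2. For the step from 0 h to 24 h, 9 of the 10 genes passed, 4 with a positive and 5 with a negative difference, where 32.2% of all tested genes did (16.8% positive, 15.4% negative). The largest difference, and the only one past 2-fold (2.59% of all genes), was that of APOM, -1.22 on the log2 scale (SE 0.11, adjusted p = 6.59e-08 by edgeR), since it rose in HepG2 and fell in APOA4-KO. APOB differed by 0.91 (SE 0.031, adjusted p = 2.43e-13), LCAT by -0.77 (SE 0.12, adjusted p = 3.04e-05), APOH by -0.58 (SE 0.023, adjusted p = 1.97e-12), APOC1 by -0.47 (SE 0.086, adjusted p = 0.000279) and APOA2 by -0.39 (SE 0.083, adjusted p = 0.00111). The 3 smaller ones were LIPC at 0.32, PLTP at 0.24 and MTTP at 0.22, and APOE did not pass (0.19, 95% interval -0.09 to 0.46) but did with the trend on GC content removed (0.52). The PLTP call was lost without HepG2 24 h replicate 1 (0.20), and MTTP was at -0.01 and not called with the trend on GC content removed, so a different response of MTTP in the lines was not found in that fit.

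For the step from 0 h to 48 h, 7 passed, 5 positive and 2 negative, beside 36.4% of all genes (18.6% and 17.8%), and none reached 2-fold (7.42% of all genes). With scaling by library size alone 5 passed, 2 positive and 3 negative. APOE differed by 0.48 (SE 0.13, adjusted p = 0.00709 by edgeR), APOC1 by 0.42 (SE 0.086, adjusted p = 0.000696), LCAT by -0.38 (SE 0.12, adjusted p = 0.0151), APOH by -0.32 (SE 0.023, adjusted p = 2.20e-09), APOB by 0.26 (SE 0.031, adjusted p = 1.59e-06), APOA2 by 0.25 (SE 0.083, adjusted p = 0.0220) and LIPC by 0.23 (SE 0.066, adjusted p = 0.00919). MTTP (-0.05), APOM (0.03) and PLTP (0.09) did not pass. The LCAT call was lost without replicate 2 of either line at 0 h (-0.31 and -0.33), and that of APOA2 without APOA4-KO 0 h replicate 2 (0.23) or APOA4-KO 48 h replicate 1 (0.21). Scaling by library size alone shifted the median of all genes from -0.04 to -0.21 in this comparison, and the values of APOE, APOA2 and LIPC were then 0.31, 0.08 and 0.06 and did not pass, while MTTP passed at -0.22. With limma on log2(FPKM + 1) or log2(FPKM + 0.1) these 3 did not pass either, APOB was at 0.088 in both and was not called (adjusted p = 0.0722 and 0.0725 by limma), and MTTP was called at -0.19 and -0.22. The LCAT value was -0.28 and not called with the trend on length removed. The 2 steps share the 0 h libraries.

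**Figure D4:**
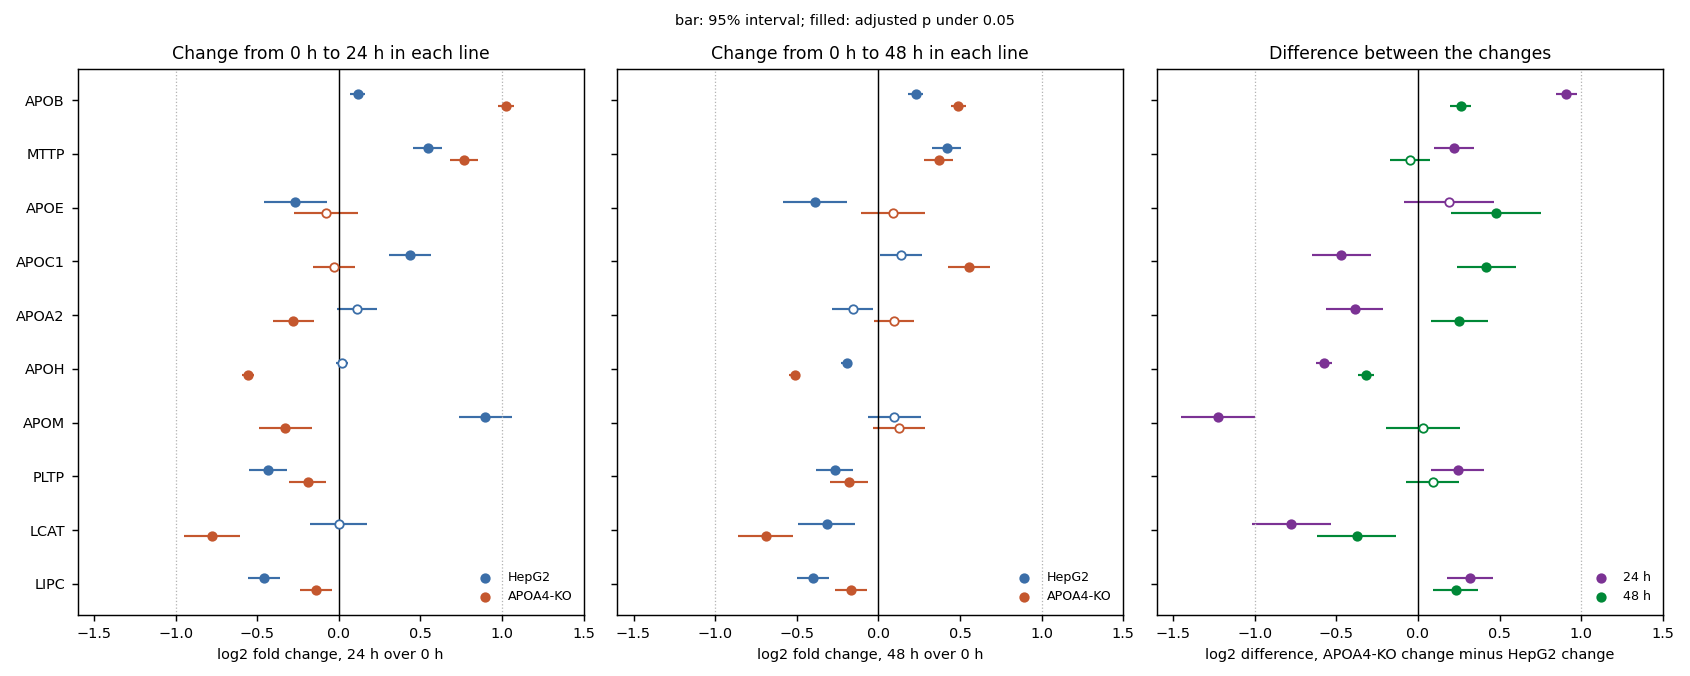
Log2 change of each gene from 0 h to 24 h (left) and to 48 h (middle) in HepG2 (blue) and APOA4-KO (orange), and the APOA4-KO change minus the HepG2 change (right, purple for 24 h and green for 48 h), with 95% intervals; filled points passed at an adjusted p under 0.05 and dotted lines mark 2-fold. APOM lies at 0.90 in HepG2 and -0.33 in APOA4-KO at 24 h, and APOB at 0.11 and 1.02.

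Ordered by their 6 group means, the genes differed in where they were highest. Of the 50 pairs of neighbours in the 10 orders, 22 passed the test: all 5 of MTTP, 4 of APOB, 3 each of APOH and LCAT, 2 each of APOC1 and APOM, 1 each of APOE, APOA2 and LIPC, and 0 of PLTP. APOB and MTTP ran from HepG2 at 0 h to APOA4-KO at 24 h (2.27-fold and 3.20-fold), and LCAT and APOH from HepG2 at 48 h to APOA4-KO at 0 h (3.55-fold and 1.61-fold). APOE, PLTP and LIPC were highest in HepG2 at 0 h, and the next group below did not pass against it for PLTP (adjusted p = 0.0739 by edgeR). APOM and APOA2 were highest in APOA4-KO at 48 h and were not told apart there from HepG2 at 24 h and APOA4-KO at 0 h, respectively. Between groups that differed in both line and time, 52.1% and 54.1% of all tested genes passed for APOA4-KO at 24 h and 48 h against HepG2 at 0 h, 30.6% and 48.7% for APOA4-KO at 0 h and 48 h against HepG2 at 24 h, and 32.2% and 47.3% for APOA4-KO at 0 h and 24 h against HepG2 at 48 h.

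In their pattern over the 18 libraries, the genes most like APOB were USP34 (Pearson's r of log2 CPM 0.99), CHD6 (0.99) and BRWD3 (0.98) out of 9838 genes averaging 500 counts or more, and those most like MTTP were C8A, SLC16A1 and ENPP3 (0.99 each). The first 3 have long transcripts like APOB, of 18860, 14345 and 14578 bases, and those like MTTP have 4793, 6487 and 3973 bases beside the 5235 of MTTP. Among the 10 genes, r was 0.90 between APOB and MTTP, 0.81 between APOA2 and APOM and 0.77 between PLTP and LIPC. These values describe 18 libraries of 6 groups and were not tested.

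Of 25 other genes of assembly and export of APOB particles, such as the coat proteins and chaperones of the endoplasmic reticulum, 3 were higher and 10 lower in APOA4-KO at 0 h, 8 higher and 10 lower at 24 h, and 12 higher and 6 lower at 48 h. Of all tested genes, 12.9%, 23.6% and 23.5% were higher and 17.6%, 24.6% and 27.3% lower at the 3 times. The list's median log2 fold change was -0.05, -0.08 and 0.10, beside -0.01, 0.01 and -0.04 over all tested genes. SEC24B, of the vesicle coat that leaves the endoplasmic reticulum, was higher at 24 h (23.5 ± 1.25 CPM, SD, in HepG2 and 41.9 ± 1.54 in APOA4-KO) and at 48 h (log2 0.93, adjusted p = 7.69e-13 by edgeR). PLA2G12B, known to be needed for lipid loading of these particles, was lower at all 3 times, by 0.43, 0.60 and 1.45 on the log2 scale (log2 fold changes -0.43, -0.60 and -1.45), with 17.7 ± 2.52 CPM in HepG2 and 6.47 ± 1.19 in APOA4-KO at 48 h. PRAP1 was at -0.36, -0.18 and -0.78, of which the 24 h value did not pass.

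Of 12 other apolipoproteins outside the APOA4 cluster, 10 were tested, without APOC4 and LPA, and 2, 7 and 5 were higher and 0, 0 and 2 lower in APOA4-KO at the 3 times, with medians of 0.20, 0.43 and 0.32 beside -0.01, 0.01 and -0.04 over all tested genes, of which 12.9%, 23.6% and 23.5% were higher and 17.6%, 24.6% and 27.3% lower. APOL1, carried on HDL, was higher throughout, by 1.79, 1.79 and 1.98 on the log2 scale, with 88.6 ± 0.475 CPM in APOA4-KO and 25.6 ± 2.26 CPM in HepG2 at 0 h. APOL4, at 1.04 to 4.08 CPM on average, was higher by 1.23 at 24 h and 1.10 at 48 h; both belong to a family of related genes between which the counting could split reads. SAA4, an HDL protein, was higher at 24 h (0.56) and lower at 48 h (-1.08, 49.8 ± 1.31 CPM in HepG2 and 23.6 ± 1.39 in APOA4-KO).

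Of 13 lipoprotein receptors and genes of their control, 4 were higher and 5 lower at 0 h, 4 higher and 8 lower at 24 h and 8 higher and 2 lower at 48 h, with medians of -0.08, -0.29 and 0.47. The shares of all tested genes that passed were 30.5%, 48.1% and 50.8% (12.9%, 23.6% and 23.5% higher). SORT1, a sorting receptor that binds APOB, was higher by 0.25, 0.65 and 0.77, and LIPG, endothelial lipase, by 0.88, 1.38 and 0.73.

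Of 11 genes of HDL formation and remodelling, 10 were tested, without PCPE2, and 5, 6 and 4 were higher and 2, 2 and 4 lower at the 3 times, with medians of 0.27, 0.46 and 0.03, where 30.5%, 48.1% and 50.8% of all tested genes passed (12.9%, 23.6% and 23.5% higher). CETP, which exchanges cholesteryl ester between particles, was higher at 0 h (1.66) and 48 h (1.68), with means at 48 h of 5.45 CPM in APOA4-KO and 1.70 CPM in HepG2, and did not pass at 24 h (0.50, adjusted p = 0.0521 by edgeR). ABCA1, the transporter that lipidates nascent HDL, was higher by 0.17 and 1.12 at 0 h and 24 h and lower at 48 h (-0.27). TTC39B was higher by 1.41, 1.87 and 1.88, and PON3, a lactonase of HDL, was lower at all 3 times (-0.35, -0.79 and -0.57).

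Of 20 transcription factors known to act on apolipoprotein genes and MTTP, 6 were higher and 6 lower at 0 h, 10 higher and 7 lower at 24 h and 12 higher and 7 lower at 48 h, with medians of 0.00, 0.29 and 0.63. All tested genes passed at 30.5%, 48.1% and 50.8% at these times, 12.9%, 23.6% and 23.5% higher. NR2F1, a nuclear receptor known to bind APOB and MTTP promoters, was higher by 0.62, 0.82 and 1.85, with 17.7 ± 0.690 CPM in HepG2 and 63.7 ± 0.542 in APOA4-KO at 48 h. CEBPA was lower at all 3 times (-0.61, -0.85 and -1.46), with 179 ± 6.61 and 65.0 ± 0.903 CPM at 48 h. FOXA2 was at 0.43, 0.57 and 1.46, of which the 0 h value did not pass, and its libraries varied widely (87.1 ± 20.3 CPM in APOA4-KO at 48 h). PPARA was higher by 0.44, 1.24 and 0.94, ONECUT1 by 0.93, 1.68 and 1.34, and CREB3L3, a factor known for its action on APOA4 and other apolipoprotein genes, by 0.64, 1.04 and 0.87.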

How the data were processed

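The 18 libraries were poly(A) RNA-seq of HepG2 and APOA4-KO cells, made with a second strand marked by dUTP, per the labels. The submitters' processing notes name fastp, HISAT2 and StringTie with the build GRCh38.p13, whereas the methods of the study name featureCounts for the counting; whether strand was used is not given in the sources used here. The authors deposited whole-number read counts per gene, not normalized between libraries, and FPKM, which are the same counts divided by a fixed length per gene and by the library total.

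The main test was the quasi-likelihood F test of edgeR 4.0.16, run under R 4.3.3 (filterByExpr on the 6 groups, TMM, 1 coefficient for each group over all 18 libraries, Benjamini-Hochberg adjustment over 19743 genes). A gene passed at an adjusted p under 0.05. The study tested counts with DESeq2, which was run here as an alternative (version 1.42.0), beside limma 3.58.1 on log2(FPKM + 1) and log2(FPKM + 0.1). CPM were scaled with TMM, apart from those of the cell type markers, and log2 CPM used a prior count of 2. The members, lists and rules were chosen with earlier results of these data known. All 10 members are named. From each list up to 3 genes with the largest change between the lines at 48 h (adjusted p under 0.05, 200 or more counts on average in whichever line was higher) are named, and those past 2-fold at 24 h, apart from genes of the receptor list that are not reported here.

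In simulated data with changes of known size in 200 genes, put into the comparison of the lines at 48 h over 19743 genes, the edgeR test recovered 42 of 47 genes of at least 500 counts changed by 0.5 on the log2 scale and 41 of 41 changed by 1. Over changed genes of any count it recovered 43 of 100 and 51 of 100. With so few genes changed, as many up as down, it cannot test the scaling of the real comparison, where 50.8% of genes passed. Counts of 4 were 2.66 to 3.12 times as frequent as their neighbours, so a count need not be 1 read pair. The smallest count of a member was 559, for which counting error is 4.23%, or 8.46% if 4 counts stand for 1 pair.

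Alternatives were DESeq2, its size factors in edgeR, library size alone, no filter on low counts, FPKM on both log scales, counts divided by 4, only the groups compared, the replicate number as a block, and each library left out in turn. Removal of a smooth trend on transcript length or on GC content in each library (genes with a value: 97.15% for each) was added after the data had been seen.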

Additional observations from a re-analysis of the deposited data

Results flagged for a closer look

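The change with time differed between the lines, by the test of the difference itself, for 9 of the 10 members at 24 h and 7 at 48 h, where 32.2% and 36.4% of all tested genes passed. Values are the log2 change in APOA4-KO minus that in HepG2, from the edgeR fit over all genes. From 0 h to 24 h they were 0.91 for APOB, 0.22 for MTTP, -0.47 for APOC1, -0.39 for APOA2, -0.58 for APOH, -1.22 for APOM, 0.24 for PLTP, -0.77 for LCAT and 0.32 for LIPC. From 0 h to 48 h they were 0.26 for APOB, 0.48 for APOE, 0.42 for APOC1, 0.25 for APOA2, -0.32 for APOH, -0.38 for LCAT and 0.23 for LIPC. APOC1 and APOA2 differed in one direction at 24 h and in the other at 48 h. The share of counts from the mitochondrial genome was 5.17% to 5.42% in APOA4-KO at 24 h and 48 h and 6.5% to 9.31% in the other libraries, and its part in these results was not tested.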

How the results depend on the processing

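Over all alternatives, the number of members that passed stayed within 1.5 times the value reported in every comparison, except that it was 5 in place of 8 for APOA4-KO at 24 h against 0 h with the trend on length removed, and 4 in place of 7 for the line difference in the change to 48 h with limma on either FPKM scale; the cause was not tested. Of 1990 values of single members under an alternative, 1812 kept their side of the threshold, 111 lost the call and 47 gained it. The remaining 20, all called in at least 1 of the 2 fits, changed sign: with the trend on length removed, in APOA4-KO over HepG2, APOA2 0.21 and APOH 0.19 at 24 h and PLTP 0.15 at 48 h, and in APOA4-KO over time, APOC1 0.18 and PLTP 0.020 at 24 h and APOH -0.049 from 24 h to 48 h. With the trend on GC content removed, APOE was 0.25 between the lines at 24 h, APOB -0.0087 in HepG2 from 24 h to 48 h, and in APOA4-KO, APOE 0.38, APOC1 0.21 and PLTP 0.17 at 24 h and APOE -0.24 and PLTP -0.23 from 24 h to 48 h, and the line difference of MTTP in the change to 24 h was -0.013. With library size alone or limma on log2(FPKM + 1) and log2(FPKM + 0.1), APOH was -0.053 in all 3 in HepG2 at 24 h, and -0.087, -0.086 and -0.087 in APOA4-KO from 24 h to 48 h. A further 63 sign changes were of values called in neither fit. Library size alone moved the median of all genes to -0.19 between the lines at 48 h, -0.11 in HepG2 at 24 h, 0.10 from 24 h to 48 h there, and -0.23 and -0.18 in APOA4-KO at 48 h against 0 h and 24 h. It moved the share of all called genes that were higher from 46.3% to 34.7% between the lines at 48 h, from 38.4% to 26.2% in HepG2 at 24 h and from 61.2% to 76.2% there from 24 h to 48 h, from 48.0% to 34.4% and from 52.9% to 35.9% in APOA4-KO at 48 h against 0 h and 24 h, and from 51.1% to 32.1% for the line difference in the change to 48 h. Of the 50 pairs of neighbours in the members' orders of group means, 22 passed, and 19 to 25 with 1 library left out.

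The replicate numbers are shared by the groups but did not pair the libraries: over 45 pairs of libraries with the same number, the correlation of deviations from the group means was -0.14 to 0.051, and 0 of 18 libraries correlated best with its own number. With the replicate block, 6 members in place of 7 passed in HepG2 at 24 h, where APOE lost its call (-0.27), and 21 in place of 22 neighbours in the orders. The block changed no other call.

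Small changes of the members with lower counts, such as LCAT, LIPC, PLTP and MTTP, rest on counts that need not be single read pairs. The limit that depth sets for each member was not tested.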

Other observations

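In some groups of both lines, but not in all, the spread of several small apolipoproteins between libraries ran together. In APOA4-KO at 24 h replicate 3 was the highest of its group for 6 of the 10 genes (APOE, APOC1, APOA2, APOM, PLTP and LIPC) and the lowest for APOB, MTTP and LCAT, and at 48 h replicate 1 was the highest for APOE, APOC1, APOA2 and APOM. In HepG2 at 24 h replicate 2 was the highest for 5 (APOE, APOC1, APOA2, APOM and PLTP) and the lowest for APOB and LCAT. The other groups went otherwise. In HepG2 at 0 h replicate 3 was the highest for APOM and the lowest for APOE, APOC1 and APOA2. In HepG2 at 48 h replicate 3 was the highest for APOE, APOA2 and APOM and the lowest for APOC1. In APOA4-KO at 0 h replicate 1 was the highest for APOC1, APOA2 and APOM and the lowest for APOE. The cause was not tested. For APOE and APOC1 the spread in APOA4-KO covers the difference between APOA4-KO at 0 h and at 24 h (1633 to 1940 against 1524 to 1924 CPM, and 116 to 120 against 102 to 129 CPM).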
